A study of Mus musculus with 4 samples.

Results

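The genes described here encode the machinery that pulls replicated chromosomes apart and divides the cell: the kinetochore, the spindle assembly checkpoint, the chromosomal passenger complex, the anaphase-promoting complex and its targets, spindle assembly factors and the cytokinesis apparatus. They were chosen by name, as the probe sets whose single annotated gene symbol is on a list of 44 such genes. All 44 were measured, each by 1 probe set, among 19938 named genes. Expression was measured on Affymetrix Mouse Gene 1.0 ST arrays, 1 array for each of 4 tissues. The PtchLacZ/+ medulloblastoma came from a mouse aged 5 months that carried a lacZ allele of Ptch1, the receptor that restrains Hedgehog signalling. The Math1-Cre;SmoM2 medulloblastomas came from mice aged 2 months and 1 month, in which Cre driven by Math1 (Atoh1) switches on an active Smoothened in granule neuron progenitors and related cells. They are called the SmoM2 tumours. The control was wild-type cerebellum, taken whole at an age of 2 months. Tumours formed spontaneously and all mice had a mixed C57BL/6 and C3H background. The labels do not say from how many animals each sample came, so the spread between the samples may be partly technical.

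A kinetochore is the protein assembly that forms on centromeric chromatin and captures spindle microtubules. Its inner layer binds nucleosomes that hold the histone variant CENP-A, its outer layer binds microtubules, and checkpoint proteins on unattached kinetochores hold the anaphase-promoting complex (APC/C) inactive until every chromosome is attached. Many of these genes are transcribed mainly in the G2 and M phases, so in bulk tissue their RNA follows the share of dividing cells as well as the level in each cell. Fewer cells of a type and less RNA per cell cannot be told apart in these samples. The adult cerebellum consists mainly of neurons that no longer divide, whereas granule neuron progenitors divide in response to Sonic hedgehog.

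The array values had the character of the labelled tissues. Marker levels are means over a list of the deposited log2 values. The 7 mature granule neuron markers averaged 6.36 in the PtchLacZ/+ tumour, 7.41 and 7.73 in the SmoM2 tumours at 2 months and 1 month, and 11.56 in the cerebellum. The 8 granule progenitor and Hedgehog target genes averaged 10.86, 10.68 and 10.50 in the same tumours and 6.60 in the cerebellum. The 5 measured Purkinje cell markers averaged 5.49, 7.71 and 7.70 in the tumours and 11.48 in the cerebellum. Atoh1, the transcription factor of granule progenitors, was at 11.98, 11.84 and 11.39 in the tumours and 4.85 in the cerebellum. Markers of some other cells that can divide also differed between the groups. The 6 oligodendrocyte precursor markers averaged 9.35, 9.44 and 9.57 in the tumours and 7.15 in the cerebellum, and 4 of the 6 rose. The 6 microglia and macrophage markers averaged 8.92, 8.73 and 8.51 in the tumours and 6.63 in the cerebellum, and 3 of the 6 rose. The 6 endothelial markers averaged 6.84, 7.57 and 6.68 in the tumours and 7.27 in the cerebellum, with a median difference of 0.05. The part of these cells in the results below was not tested. Alas2, the single erythroid marker measured, was at 5.50, 5.46 and 5.16 in the tumours and 6.33 in the cerebellum. No detection calls were used. Low levels were therefore judged against the lower quartile of named genes on the same array, which was 5.09 in the cerebellum. Below it a level may be background, and the difference is then given as a lower limit.

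The mitotic genes were higher in the tumours almost throughout. Of the 44 genes, 38 rose at an adjusted p under 0.05 (limma, Benjamini-Hochberg over all 19938 genes), 1 fell and 5 did not pass. Over all named genes, 6.7% rose and 9.3% fell. The median difference between the 3 tumours and the cerebellum was 2.89 on the log2 scale for the 44 genes and 0.04 for all named genes. All 3 tumours lay above the cerebellum for 43 of the 44 genes, the exception being Zwint, against 38.1% of all named genes. In 11 genes the difference was at least 4 log2 units, and in 4 of these (Ect2, Mki67, Bub1 and Tpx2) at least 5. Among all 19938 named genes, 68 were higher by at least 4 and 24 by at least 5. None of the 44 was under the lower quartile in any tumour, against 5557 of 19938 named genes under it in at least 1. In the cerebellum 11 of the 44 were under it, against 4984 of all named genes, a share that the quartile sets. The 11 were Cenph, Cenpk, Cenpe, Cenpf, Bub1, Ttk, Cdca8, Tpx2, Nusap1, Prc1 and Ect2. The differences of these 11 genes are lower limits. Only the 3 tumours give the test its spread, since there was 1 cerebellum, whose variation was taken to be like theirs. The tumours differ in genotype and in age, so this spread can hold such differences too. The size of a measured difference also depends on the probe set.

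**Figure D1:**
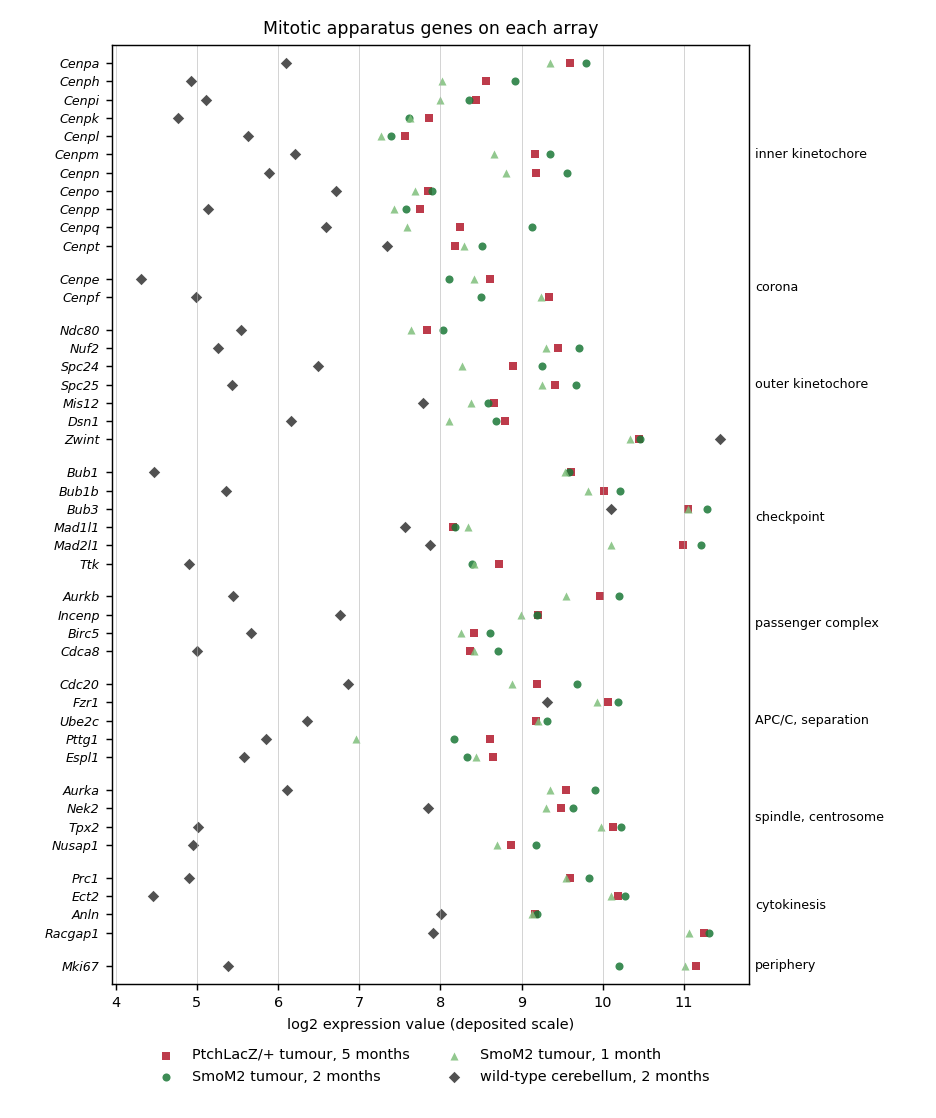
Deposited log2 expression value (x axis) of each of the 44 genes (rows, grouped by role) on each of the 4 arrays; each point is 1 array. The cerebellum lies left of all 3 tumours for 43 genes and right of them for Zwint, and the 3 tumours are spread most widely for Pttg1, Cenpq and Mad2l1.

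The promoters were examined for the sequence letters known to mark genes of this class. In cell cycle genes, the CHR (cell cycle genes homology region) binds MuvB-based complexes that repress in resting cells and activate in G2 and M, and the factor NF-Y binds CCAAT boxes. RefSeq promoters (GRCm38.p6, 250 bases before to 50 bases after the annotated start, first listed promoter of each gene) were found for 40 of the 44 genes and not for Aurkb, Incenp, Spc24 and Tpx2. The CHR letters TTTGAA or TTCGAA were searched on both strands, and so were the letters CCAAT. Matches could overlap, which happened between a TTTGAA and a CCAAT match in Cdca8 and between CCAAT matches on opposite strands in Ube2c, and TTCGAA, which reads the same on both strands, was counted once. A CHR match was present in 21 of the 40 promoters (52.5%), against 19.4% of the promoters of 27025 genes. A CCAAT match was present in 28 of 40 (70%), against 37.9%, and both in 19 of 40 (47.5%), against 7.7%. The 40 promoters held 25 CHR matches, of which 19 began within 50 bases of the start, with a median position of 3 bases after it. The CCAAT matches began at a median of -65 bases. The window holds more bases before the start than after it, and positions in other genes were not computed. These shares describe letters in a window and do not show that a factor was bound.

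**Figure D2:**
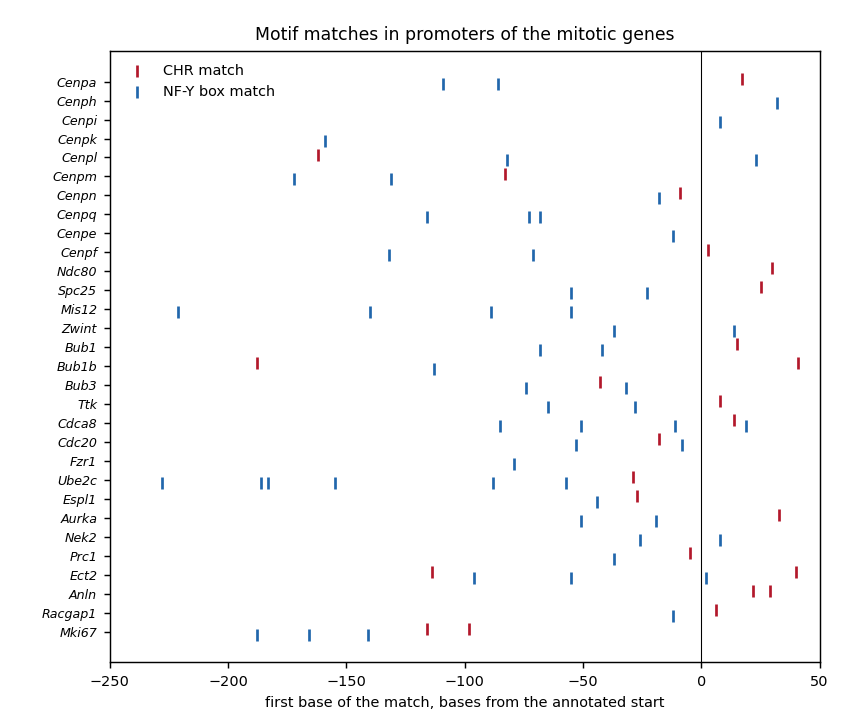
Position of each motif match (x axis, bases from the annotated transcription start; ticks mark the first base) in the promoters of the genes with at least 1 match (rows). CHR matches (red) gather around the start, with 19 of 25 within 50 bases of it, and the CCAAT boxes that NF-Y binds (blue) lie mostly before it, with a median of -65.

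The CHR letters were set beside the expression differences. All 21 genes with a CHR match rose, with a median difference of 3.48 on the log2 scale and a range of 1.02 to 5.73. Of the 19 genes whose promoter had no CHR match, 13 rose, with a median difference over the 19 of 2.37 and a range of -1.03 to 4.23. The 6 genes not called higher were Cenpq, Mis12, Zwint, Mad1l1, Fzr1 and Pttg1. All 6 were among these 19, and 4 of the 6 had a CCAAT match. Of the 6, Zwint alone was lower in the tumours. The others lay above the cerebellum in all 3 tumours without passing, with differences of 2.07 for Pttg1 and 1.73 for Cenpq. Both exceeded the 1.02 of Bub3, which has a CHR match. This split was not computed for genes outside the list, and the part of the CHR letters in the rise was not tested. The promoters of 6 genes are printed. Of these, Cdc20 and Fzr1 are both activators of the APC/C, and Bub1b and Bub3 are both in the checkpoint. Each of these pairs sets a gene that differed strongly beside a gene of like role that did not. Birc5, a passenger protein that rose with no match in this window, and Zwint, the gene that fell, are not such a pair. Birc5 was to be paired with Incenp, whose promoter was not found. They are read 5′ to 3′ on the strand of the gene, and capitals mark the CHR and CCAAT letters or their reverse complements. The promoters lie at chr4:118437294-118437593 (minus strand) for Cdc20, chr10:81378321-81378620 (minus) for Fzr1, chr2:118597961-118598260 (plus) for Bub1b, chr7:131560120-131560419 (plus) for Bub3, chr11:117848987-117849286 (plus) for Birc5 and chr10:72654596-72654895 (plus) for Zwint. Zwint was added to this set after its values were seen.
Cdc20: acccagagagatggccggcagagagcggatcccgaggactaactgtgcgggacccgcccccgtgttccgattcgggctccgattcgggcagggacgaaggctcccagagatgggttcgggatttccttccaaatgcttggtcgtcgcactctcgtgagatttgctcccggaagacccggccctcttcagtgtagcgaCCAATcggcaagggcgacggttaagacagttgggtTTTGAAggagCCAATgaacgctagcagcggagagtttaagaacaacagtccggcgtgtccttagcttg
Fzr1: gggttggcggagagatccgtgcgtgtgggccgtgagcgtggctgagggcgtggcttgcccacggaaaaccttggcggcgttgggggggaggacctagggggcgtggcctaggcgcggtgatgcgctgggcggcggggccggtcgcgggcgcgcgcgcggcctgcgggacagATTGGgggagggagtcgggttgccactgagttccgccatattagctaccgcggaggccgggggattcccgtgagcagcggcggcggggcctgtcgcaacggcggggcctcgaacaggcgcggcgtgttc
Bub1b: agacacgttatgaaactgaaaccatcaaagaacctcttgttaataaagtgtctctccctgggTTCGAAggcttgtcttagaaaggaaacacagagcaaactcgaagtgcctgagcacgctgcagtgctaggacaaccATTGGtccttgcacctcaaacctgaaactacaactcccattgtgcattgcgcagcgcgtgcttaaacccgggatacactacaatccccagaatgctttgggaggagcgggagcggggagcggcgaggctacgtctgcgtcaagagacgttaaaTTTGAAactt
Bub3: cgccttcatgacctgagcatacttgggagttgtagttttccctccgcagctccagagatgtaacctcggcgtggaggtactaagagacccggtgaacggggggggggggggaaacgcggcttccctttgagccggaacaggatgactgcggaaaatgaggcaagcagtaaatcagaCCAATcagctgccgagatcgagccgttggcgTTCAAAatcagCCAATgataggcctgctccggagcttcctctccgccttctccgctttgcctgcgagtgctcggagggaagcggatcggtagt
Birc5: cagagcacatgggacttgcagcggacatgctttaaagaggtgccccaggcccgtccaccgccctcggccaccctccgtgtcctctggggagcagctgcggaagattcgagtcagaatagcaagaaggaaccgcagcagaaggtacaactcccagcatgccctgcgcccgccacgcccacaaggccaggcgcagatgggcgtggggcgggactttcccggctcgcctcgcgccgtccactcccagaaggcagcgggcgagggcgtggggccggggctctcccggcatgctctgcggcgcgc
Zwint: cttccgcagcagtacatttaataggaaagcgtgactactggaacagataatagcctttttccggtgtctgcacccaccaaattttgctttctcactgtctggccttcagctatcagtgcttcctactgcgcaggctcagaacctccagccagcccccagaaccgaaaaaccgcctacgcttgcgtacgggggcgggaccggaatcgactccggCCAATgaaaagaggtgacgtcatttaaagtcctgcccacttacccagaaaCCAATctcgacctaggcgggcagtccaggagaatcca

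Inner kinetochore genes rose, with 10 of 11 past the threshold and a median difference of 2.84 on the log2 scale. Cenpa, the histone variant that marks the centromere, was at 9.60 in the PtchLacZ/+ tumour, 9.79 and 9.35 in the SmoM2 tumours at 2 months and 1 month, and 6.10 in the cerebellum. The tumours lay close together and far above the cerebellum, and Cenpa rose by 3.48 ± 0.23 (limma standard error; 11.2-fold, adjusted p = 0.00365). The remaining members belong to the constitutive centromere-associated network (CCAN), which links CENP-A chromatin to the outer kinetochore. Of its subcomplex of Cenph, Cenpi, Cenpk and Cenpm, all 4 rose, by 3.57 ± 0.37, 3.15 ± 0.24, 2.93 ± 0.19 and 2.84 ± 0.31. Cenpn and Cenpl, partners that contact the CENP-A nucleosome, rose by 3.30 ± 0.32 and 1.77 ± 0.20. Of the Cenpo, Cenpp and Cenpq subcomplex, Cenpp rose by 2.45 ± 0.20 and Cenpo by 1.09 ± 0.18. Cenpq was at 8.24 in the PtchLacZ/+ tumour, 9.13 and 7.59 in the 2-month and 1-month SmoM2 tumours, and 6.58 in the cerebellum. All its tumour values were above the cerebellum but they spread over 1.53 log2 units, and its difference of 1.73 ± 0.59 did not pass (adjusted p = 0.124). Cenpq passed when either SmoM2 tumour was left out (adjusted p = 0.0199 without the 2-month and 0.0416 without the 1-month tumour). Cenpt, which recruits the microtubule-binding NDC80 complex, was at 8.18, 8.52 and 8.29 in the tumours and 7.34 in the cerebellum, and rose by 0.98 ± 0.21 (adjusted p = 0.0371). Without the 1-month SmoM2 or the PtchLacZ/+ tumour Cenpt did not pass (adjusted p = 0.0859 and 0.0951), and neither did Cenpo without the PtchLacZ/+ tumour (adjusted p = 0.0894).

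The corona proteins, large molecules on the outer face of the kinetochore, rose as well. Cenpe, a kinesin motor that carries chromosomes to the spindle equator, was at 8.61 in the PtchLacZ/+ tumour, 8.10 and 8.41 in the SmoM2 tumours at 2 months and 1 month, and 4.31 in the cerebellum. It rose by 4.06 ± 0.25 (adjusted p = 0.00335), a lower limit. Cenpf, a coiled-coil protein made in G2, was at 9.34, 8.50 and 9.24 in the same tumours and 4.99 in the cerebellum, and rose by 4.04 ± 0.38 (adjusted p = 0.00585), also a lower limit. In both genes the 2-month SmoM2 tumour was the lowest of the tumours.

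In the outer kinetochore, 5 of 7 genes rose, 1 fell and 1 did not pass. The NDC80 complex, a rod that binds the microtubule with its Ndc80 and Nuf2 end and the kinetochore with its Spc24 and Spc25 end, rose in all 4 subunits. Nuf2 was at 9.45 in the PtchLacZ/+ tumour, 9.71 and 9.30 in the 2-month and 1-month SmoM2 tumours, and 5.25 in the cerebellum, and rose by 4.23 ± 0.22 (18.8-fold, adjusted p = 0.00320). Its partner Ndc80 was at 7.84, 8.04 and 7.63 in the tumours and 5.54 in the cerebellum, and rose by 2.29 ± 0.22 (adjusted p = 0.00615). Spc25 rose by 4.02 ± 0.22 and Spc24 by 2.31 ± 0.40, and leaving out the PtchLacZ/+ tumour ended the Spc24 call (adjusted p = 0.0595). Of the MIS12 complex, which joins the inner and outer layers, Dsn1 rose by 2.37 ± 0.32. Mis12 was at 8.66, 8.59 and 8.38 in the tumours and 7.78 in the cerebellum, and its difference of 0.76 ± 0.19 did not pass (adjusted p = 0.0635). Quantile normalization brought Mis12 past the threshold (adjusted p = 0.0452), as did leaving out the 2-month SmoM2 tumour (0.0332).

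Zwint went the other way. Its protein recruits the RZZ complex and with it checkpoint proteins to the kinetochore, and the rat protein was also described as a partner of the synaptic protein SNAP25. Zwint was at 10.45 in the PtchLacZ/+ tumour, 10.45 and 10.33 in the SmoM2 tumours at 2 months and 1 month, and 11.44 in the cerebellum. The tumours lay close together and about 1 unit below the cerebellum. Zwint fell by 1.03 ± 0.17 (0.489-fold, adjusted p = 0.0201). The call was lost without the 1-month SmoM2 tumour or without the PtchLacZ/+ tumour (adjusted p = 0.0639 and 0.0881), where the difference was -0.99 and -1.05. The direction was the same under every alternative run. The mean level of mature granule neuron markers was lower in the tumours too, as given above, and its part in the Zwint result was not tested.

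The spindle checkpoint genes rose in 5 of 6 cases, with a median difference of 3.25. Bub1, a kinase that marks centromeric chromatin, was at 9.61 in the PtchLacZ/+ tumour, 9.59 and 9.53 in the 2-month and 1-month SmoM2 tumours, and 4.47 in the cerebellum. The tumours differed by less than 0.1 log2 units, and Bub1 rose by 5.10 ± 0.17 (adjusted p = 0.00231), a lower limit. Bub1b (BUBR1), part of the complex that inhibits the APC/C, was at 10.01, 10.22 and 9.82 in the tumours and 5.35 in the cerebellum, and rose by 4.66 ± 0.22 (25.3-fold). Ttk (MPS1), the kinase that starts checkpoint signalling, rose by 3.61 ± 0.21. Mad2l1, whose protein changes fold to capture Cdc20, was at 10.99, 11.21 and 10.10 in the tumours and 7.87 in the cerebellum, and rose by 2.90 ± 0.46 (adjusted p = 0.0183). The other checkpoint genes, Bub3 and Mad1l1, differed by about 1 unit or less. Like Mad2l1, they were far from the lower quartile in the cerebellum. Bub3, the adaptor that binds both Bub1 and Bub1b, was at 11.05, 11.28 and 11.04 in the tumours and 10.10 in the cerebellum, and rose by 1.02 ± 0.19 (adjusted p = 0.0273). It did not pass without the 1-month SmoM2 or the PtchLacZ/+ tumour (adjusted p = 0.0635 and 0.0963). Mad1l1 (MAD1), the platform for Mad2 at the kinetochore, was at 8.16, 8.18 and 8.34 in the tumours and 7.57 in the cerebellum, and its difference of 0.66 ± 0.18 did not pass (adjusted p = 0.0731), except without the 2-month SmoM2 tumour (adjusted p = 0.0307). In the promoters printed above, Bub1b and Bub3 both held CHR and CCAAT matches.

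All 4 subunits of the chromosomal passenger complex rose. This complex moves from centromeres to the central spindle and corrects faulty attachments. Its kinase gene Aurkb was at 9.96 in the PtchLacZ/+ tumour, 10.21 and 9.54 in the SmoM2 tumours at 2 months and 1 month, and 5.44 in the cerebellum, and rose by 4.46 ± 0.29 (adjusted p = 0.00365). Cdca8 (Borealin) rose by 3.49 ± 0.21, Birc5 (Survivin) by 2.75 ± 0.21 and the scaffold gene Incenp by 2.36 ± 0.18. The adjusted p of these 4 genes was at most 0.00442.

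Genes of the APC/C and of chromosome separation were divided, with 3 of 5 past the threshold. Cdc20, the APC/C activator of mitosis and the target of the checkpoint, was at 9.19 in the PtchLacZ/+ tumour, 9.69 and 8.88 in the 2-month and 1-month SmoM2 tumours, and 6.86 in the cerebellum, and rose by 2.40 ± 0.34 (5.26-fold, adjusted p = 0.0136). Fzr1 (CDH1), the activator that works from late mitosis through G1 and is also active in neurons that no longer divide, was at 10.06, 10.19 and 9.93 in the tumours and 9.31 in the cerebellum. Its groups did not overlap, but its difference of 0.75 ± 0.19 did not pass (adjusted p = 0.0586). Quantile normalization brought Fzr1 past the threshold (adjusted p = 0.0318), as did leaving out the 2-month SmoM2 tumour (0.0256). The Cdc20 promoter held 1 CHR and 2 CCAAT matches, and that of Fzr1 held 1 CCAAT match and no CHR match. Ube2c, the enzyme that starts ubiquitin chains for the APC/C, rose by 2.87 ± 0.17, and Espl1 (separase), the protease that cuts cohesin, by 2.89 ± 0.20. Pttg1 (securin), which holds separase inactive, was at 8.61 in the PtchLacZ/+ tumour, 8.17 and 6.96 in the 2-month and 1-month SmoM2 tumours, and 5.85 in the cerebellum. It had the widest spread between tumours of the 44 genes (SD 0.85, n = 3), and its difference of 2.07 ± 0.65 did not pass (adjusted p = 0.103). Without the 1-month SmoM2 tumour the difference was 2.54 and passed (adjusted p = 0.0107).

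The spindle assembly and centrosome genes all rose, 4 of 4. Tpx2, which activates Aurora A and nucleates microtubules near chromosomes, was at 10.13 in the PtchLacZ/+ tumour, 10.23 and 9.98 in the 2-month and 1-month SmoM2 tumours, and 5.01 in the cerebellum, and rose by 5.10 ± 0.19 (adjusted p = 0.00295), a lower limit. Nusap1, a microtubule-bundling protein, rose by 3.96 ± 0.24, and the centrosomal kinase gene Aurka by 3.50 ± 0.26. Nek2, a kinase that splits the centrosomes, was at 9.49, 9.63 and 9.30 in the tumours and 7.85 in the cerebellum, and rose by 1.62 ± 0.20 (adjusted p = 0.0103).

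The central spindle and cytokinesis genes also rose in 4 of 4 cases. Ect2, the exchange factor that activates RhoA at the division plane, was at 10.19 in the PtchLacZ/+ tumour, 10.27 and 10.10 in the 2-month and 1-month SmoM2 tumours, and 4.45 in the cerebellum, a difference of at least 5 log2 units. Prc1, which bundles the antiparallel microtubules of the central spindle, rose by 4.76 ± 0.20 (adjusted p = 0.00295), also from a level under the lower quartile. Racgap1, the partner that brings Ect2 to the central spindle, was at 11.25, 11.30 and 11.07 in the tumours and 7.91 in the cerebellum, and rose by 3.30 ± 0.19 (9.85-fold). Anln (anillin), the scaffold of the contractile ring, was at 9.16, 9.19 and 9.13 in the tumours and 8.01 in the cerebellum. The tumours were nearly equal (SD 0.03, n = 3), and Anln rose by 1.15 ± 0.16 (adjusted p = 0.0138), although not without the PtchLacZ/+ tumour (adjusted p = 0.0695). In the mouse brain anillin is also a component of myelin. Mki67 (Ki-67), which coats mitotic chromosomes and is the usual marker of proliferation, was at 11.15, 10.20 and 11.01 in the tumours and 5.38 in the cerebellum.

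Other genes of the same apparatus were counted from 4 further lists. Of 23 other centromere and kinetochore genes, 17 rose and none fell, with a median difference of 1.92. Knl1, the scaffold on which checkpoint proteins dock, rose by 5.10 ± 0.33, and Ska3, of the complex that tracks shortening microtubules, by 4.77 ± 0.22, both from levels under the lower quartile. Clasp2, a microtubule plus-end protein, was the single gene of that list with a negative difference (-0.66 ± 0.33, adjusted p = 0.269). Of 23 other spindle and centrosome genes, 17 rose and 1 fell (median 2.74). The spindle motor gene Kif11 rose by 5.20 ± 0.17 and the microtubule depolymerase gene Kif2c by 5.07 ± 0.22, again lower limits. Tacc1, a centrosomal coiled-coil gene, fell by 1.56 ± 0.22 (adjusted p = 0.0136), and Tacc2 differed by -0.48 ± 0.26 (adjusted p = 0.301).

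The remaining lists also hold genes with roles outside mitosis. Of 18 genes of the APC/C core and its regulators, 4 rose and none fell, with a median difference of 0.36. The checkpoint ATPase gene Trip13 rose by 3.10 ± 0.34 and the APC/C inhibitor gene Fbxo5 (EMI1) by 2.54 ± 0.28. The chain-elongating enzyme gene Ube2s rose by 1.84 ± 0.26, and Anapc5 was the single gene for a core subunit that passed (1.15 ± 0.22, adjusted p = 0.0293). Ube2s and Anapc5 are named after their values were seen. The core genes Anapc13 and Anapc16 differed by -0.36 ± 0.27 and -0.30 ± 0.24. Of 18 other cytokinesis genes, 6 rose and none fell (median 0.31). The abscission gene Cep55 rose by 4.36 ± 0.17, a lower limit, and Kif23, the motor partner of Racgap1 in the centralspindlin complex, by 4.36 ± 0.18. Chmp4b, of the ESCRT-III membrane-cutting machinery, differed by -0.82 ± 0.25 (adjusted p = 0.0936) and Septin7 by -0.47 ± 0.22 (adjusted p = 0.246). Whether these lists differ from the 44 genes was not tested.

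**Figure D3:**
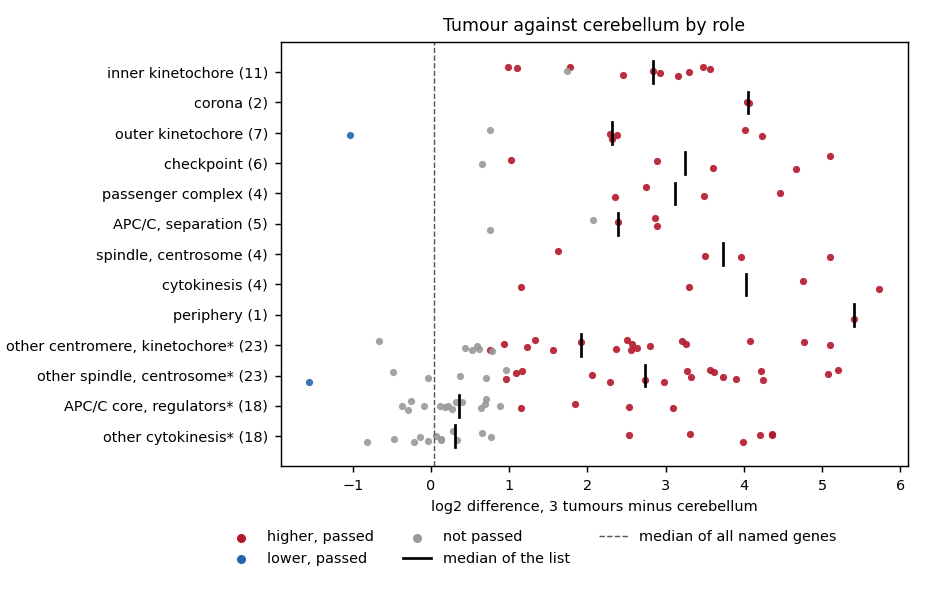
Log2 difference between the 3 tumours and the cerebellum (x axis) for each gene, by role (rows, number of genes in brackets; rows with an asterisk are genes outside the 44). Colour shows the limma call at an adjusted p under 0.05, black bars are list medians and the dashed line is the median of all named genes (0.04). List medians lie between 2.31 and 5.41 for the 44 genes and at 0.36 and 0.31 for the APC/C core and other cytokinesis lists.

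Next, the mitotic genes of the PtchLacZ/+ tumour were set against those of the SmoM2 tumours. No difference was called in any of the 44 genes, but none was called among all 19938 genes either (0%, limma, 1 residual degree of freedom), so the count says nothing particular about them. At an unadjusted p under 0.05 there were 280 genes in all (1.4%) and none of the 44. The median difference, PtchLacZ/+ minus SmoM2, was 0.04 on the log2 scale for the 44 genes and -0.03 for all named genes, and 28 of the 44 were higher in the PtchLacZ/+ tumour (63.6%, against 44.8% of all named genes). That count depends on which SmoM2 tumour is used. The PtchLacZ/+ value was above that of the 2-month SmoM2 tumour in 14 of the 44 genes (31.8%, against 40.8% of all named genes) and above that of the 1-month SmoM2 tumour in 40 (90.9%, against 51.9%). In 42 of the 44 genes the difference was under 0.5 in size, as it was in 18557 of the 19938 named genes. Age (5 months against 1 to 2 months) and genotype cannot be told apart in this comparison. Neuronal markers also differed between these tumours. All 5 Purkinje cell markers were lower in the PtchLacZ/+ tumour, with a median difference of -1.97 on the log2 scale and a range of -3.56 to -0.89. Calb1, with the widest difference of the 5, was at 4.45 in it, against 7.96 and 8.05 in the 2-month and 1-month SmoM2 tumours. Pcp2, with the smallest, was at 5.95, against 6.91 and 6.76. Of the 7 mature granule neuron markers 6 were lower in the PtchLacZ/+ tumour (median -0.64), and Gabra6 was at 4.64 in it, against 7.40 and 7.97. Gabra6 had the widest difference of the 7, which ranged from -3.05 to 0.32, and 3 of the 7 differed by under 0.5 in size. Among all named genes, 11003 of 19938 were lower in the PtchLacZ/+ tumour. No marker passed after adjustment, while all 5 Purkinje and 3 of the 7 granule neuron markers had an unadjusted p under 0.05 (limma). Markers of other cells differed as well. Of the 8 granule progenitor and Hedgehog target genes 6 were higher in the PtchLacZ/+ tumour (median 0.29), and of the 6 microglia and macrophage markers 4 (median 0.43). Of the 6 oligodendrocyte precursor markers 2 were higher in it (median -0.13), and of the 6 endothelial markers 1 (median -0.33). The part of all these cells in the values of the mitotic genes was not tested.

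The widest difference was that of Pttg1, at 1.05 (95% interval -0.38 to 2.47, unadjusted p = 0.116), and the PtchLacZ/+ value of 8.61 lay above both SmoM2 values (8.17 and 6.96). Mki67 followed at 0.54 (-0.53 to 1.60) and Cenpf at 0.47 (-0.55 to 1.49). For both, the PtchLacZ/+ value was close to that of the 1-month SmoM2 tumour and above that of the 2-month tumour. Dsn1 differed by 0.40 (-0.50 to 1.30) and Cenpe by 0.35 (-0.39 to 1.08). The 5 most negative differences were those of Cenpt (-0.23), Cdca8 (-0.19), Cenpq (-0.12), Bub3 (-0.11) and Mad1l1 (-0.10). Bub1, for which the tumours lay closest together among the checkpoint genes, differed by 0.05, with an interval from -0.61 to 0.71. The interval included 0 for each of the 44 genes, which does not show that the tumours were alike.

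The SmoM2 tumour at 2 months was set beside the one at 1 month. With 1 array at each age there is no test, and differences of at least 1 log2 unit were counted. Most of the 44 genes were somewhat higher in the 2-month tumour: 37 of 44 (84.1%), against 59.8% of all named genes. The median difference, 2 months minus 1 month, was 0.27 for the 44 genes and 0.08 for all named genes. After quantile normalization, 34 genes were higher at 2 months, with medians of 0.15 for the 44 genes and 0.02 for all. Centring the arrays on the median of all probe sets was an alternative chosen after seeing the data. It shifts the median of all named genes to 0.32 and that of the 44 genes to 0.51, and 41 of the 44 were then higher. The share of all named genes higher at 2 months is not given for either alternative, so these counts lack that comparison. The 1-month tumour was the lowest of the 3 tumours in 34 of the 44 genes (77.3%, against 38.1% of all named genes).

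In 3 genes the 2-month value was higher by at least 1 unit, against 1.66% of all named genes past that difference in this direction. Cenpq was at 9.13 in the 2-month tumour, against 7.59 in the 1-month tumour (2.89-fold). Pttg1 was at 8.17 in the 2-month tumour, against 6.96 in the 1-month tumour (2.31-fold). Mad2l1 was at 11.21 in the 2-month tumour, against 10.10 in the 1-month tumour (2.16-fold), although after quantile normalization its difference was under 1. Spc24 (0.99) and Cenph (0.90) were next. None of the 44 was lower by 1 unit or more, against 2.05% of all named genes. At 0.5 units the counts were 11 genes higher and 2 lower in the 2-month tumour, against 13% and 8.57% of all named genes.

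The genes in the other direction were few. Mki67 was at 10.20 in the 2-month tumour, against 11.01 in the 1-month tumour, a difference of -0.81. Cenpf was at 8.50 in the 2-month tumour, against 9.24 in the 1-month tumour (-0.75), and Cenpe at 8.10, against 8.41 (-0.31). Mad1l1 (-0.16) and Espl1 (-0.11) completed the 5 largest differences in this direction, and both change sign when arrays are centred on all probe sets. After quantile normalization they were further from 0, at -0.26 for Mad1l1 and -0.20 for Espl1. Cenpk (-0.02) and Ttk (-0.03) were also slightly lower at 2 months. All 7 genes of the outer kinetochore were higher at 2 months in the deposited values (59.8% of all named genes were), and 6 of them after quantile normalization, where Zwint was at -0.02. This was not particular to the outer kinetochore. In the deposited values, all 4 genes each of the passenger complex, of spindle assembly and of cytokinesis were higher too, and 10 of 11 inner kinetochore genes.

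Values that moved with this comparison are given beside it. Across the 44 genes, Spearman's rho between the genomic span of a gene and its difference between 2 months and 1 month was -0.552, and across 19853 named genes with a span it was -0.145. The genes share the same 2 arrays, and these are descriptions with no test. Genes were also put in 5 classes of genomic span, from the shortest to the longest. The median difference over all genes was 0.08, 0.16, 0.15, 0.08 and -0.08 in these classes. Over the 1, 14, 10, 16 and 3 of the 44 genes in them it was 0.11, 0.52, 0.36, 0.20 and -0.16. The largest median was in the second class (4345 to 12197 bases), not in the first (45 to 4342 bases), and the lowest in the fifth (59508 bases and more). Endothelial markers also differed, with 5 of 6 higher in the 2-month tumour and a mean level of 7.57 in the 2-month tumour, against 6.68 in the 1-month tumour. Pecam1 was at 7.63 in the 2-month tumour, against 6.30 in the 1-month tumour, and Cdh5 at 7.56, against 6.48. The part of gene span and of endothelial cells in the result was not tested.

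**Figure D4:**
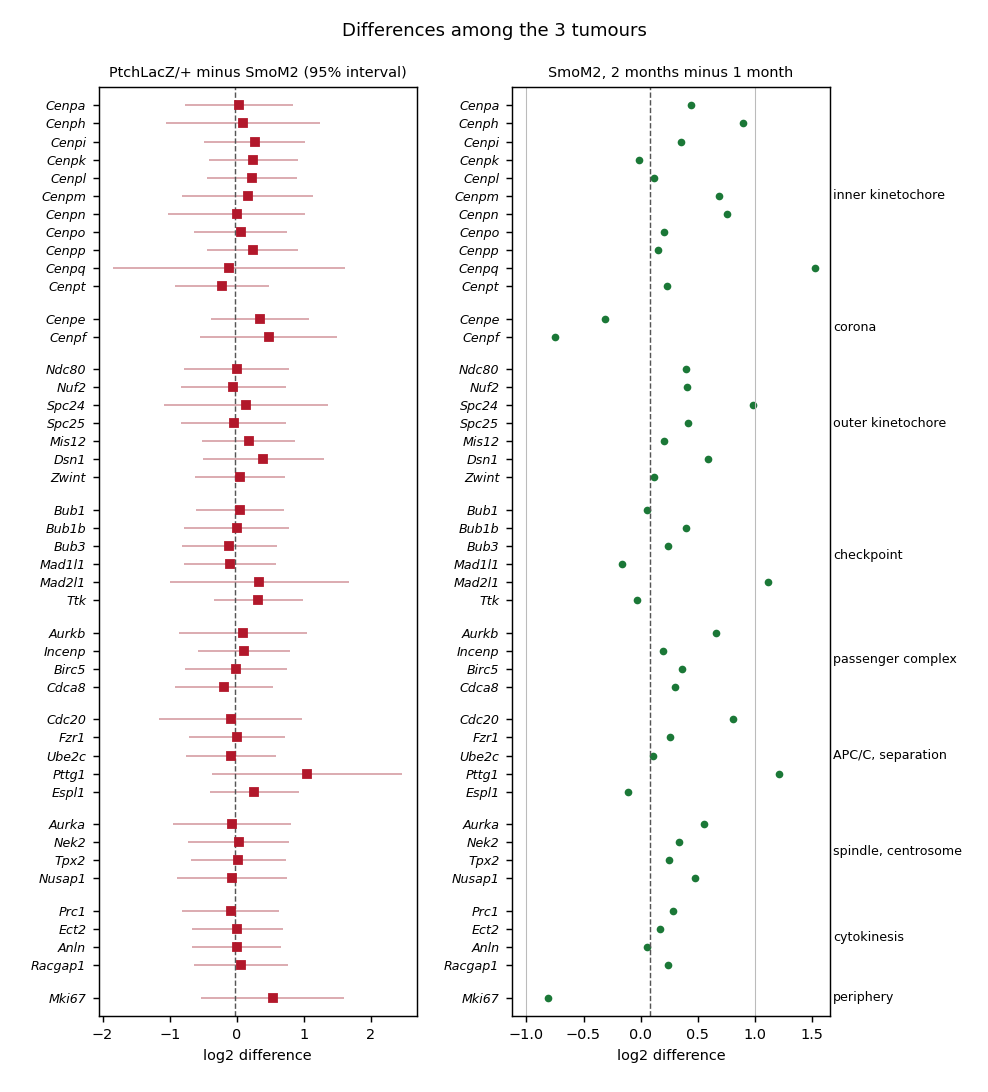
Left, log2 difference PtchLacZ/+ minus SmoM2 for each gene, with limma's 95% interval; right, log2 difference between the SmoM2 tumours, 2 months minus 1 month, with 1 array each and grey lines at a difference of 1 unit. Dashed lines are the medians of all named genes (-0.03 and 0.08). Every interval on the left includes 0, and on the right Cenpq, Pttg1 and Mad2l1 lie beyond 1 while Mki67 and Cenpf lie furthest on the negative side.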

How the data were processed

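The deposited table holds log2 expression values of 35557 probe sets in 4 columns, and the submitters' processing notes name Affymetrix Expression Console as the authors' software. The sources used here give neither its version nor the normalization. The values ran from 2.71 to 14.9, from which the log2 scale was taken. The values were used as deposited. Gene names came from GEO's annotation of the platform (21789 with a single symbol), with symbols updated from RefSeq (GRCm38.p6) by Entrez identifier, and the probe set with the highest mean was used for each of 19938 genes. Median levels over named genes were 6.73 to 6.82 on the 4 arrays. The number of arrays limits the precision.

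Groups came from the genotype labels. The 3 tumours were compared with the cerebellum, and the PtchLacZ/+ with the SmoM2 tumours, with limma 3.58.1 (lmFit, eBayes) in R 4.3.3, two-sided, with 2 and 1 residual degrees of freedom and Benjamini-Hochberg adjustment over all named genes. The variance of a group of 1 was taken from the replicated group. An exact permutation of 3 samples against 1 cannot give a one-sided p below 0.25. Errors after ± are standard errors from limma. The fits were checked on simulated data with known changes. In that simulation, recovery of changes of 1 log2 unit was incomplete in both comparisons, so a gene that did not pass may still differ. False calls in PtchLacZ/+ against SmoM2 exceeded the rate the adjustment sets. Alternatives were quantile normalization, filters on dim genes, the mean of all probe sets of a gene, all probe sets tested, a trended prior variance, a minimum difference of 1 and leaving out each tumour.

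The members and the gene lists were chosen with earlier results of these data known. Text names any of the 44 genes, the 2 largest differences in each direction of each further list where there were that many, the first markers of each cell type list, and, between tumours, the 5 largest differences in each direction. Protein sequences were not used here.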

Additional observations from a re-analysis of the deposited data

How the results depend on the processing

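In tumour against cerebellum, the number of the 44 genes called higher was 38 and stayed between 31 (all probe sets tested) and 42 (without the 2-month SmoM2 tumour) under every alternative run, and was 33 without the PtchLacZ/+ tumour. The number called lower was 1 (Zwint) and became 0 when all probe sets were tested (adjusted p = 0.0623) and lay between 0 and 1 when 1 tumour was left out. None of the differences changed sign. Over 396 recomputed values for single genes, 370 kept their side of the threshold, 18 (in 9 genes) lost it and 8 (in 5 genes) gained it, and the cause was not tested. When all probe sets were tested, more features entered both the limma fit and the adjustment. Genes that lost the call there were Cenpo, Cenpt, Spc24, Dsn1, Zwint, Bub3, Mad2l1 and Cdc20. Cenpt also lost it with a trended prior variance (adjusted p = 0.0567). Over all named genes the counts were 1336 higher and 1855 lower, against 501 and 750 with all probe sets tested, 2689 and 3321 without the 2-month SmoM2 tumour, and 628 and 937 without the PtchLacZ/+ tumour. In PtchLacZ/+ against SmoM2 the count for the 44 genes was 0 under each alternative with a test. Between the SmoM2 tumours, the count of genes past 1 unit was 3 higher and 0 lower at 2 months, 2 and 0 after quantile normalization, and 11 and 2 at a limit of 0.5 units, by construction of the limit. No paired analysis was possible because the labels give no replicate numbers shared between groups.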
